A study of Mus musculus with 12 samples.

Results

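The myelin and oligodendrocyte genes described here were Mbp, Mog, Mag, Cnp, Mobp, Olig1, Olig2 and Sox10, 8 of the 22317 gene symbols in a table of RNA sequencing counts. They were chosen by name, with earlier results of these data known, and all 8 were found in the table. The study used photothrombosis, in which light closes vessels filled with a photosensitive dye, to injure either the brain or the skull of mice. All mice were wild-type BALB/c males of 8 weeks. The groups SB2 and SB4 were labelled as brain cortex taken on day 2 and day 4 after photothrombosis of the skull. The groups BS2 and BS6 were labelled as interparietal bone taken on day 2 and day 6 after photothrombosis of the brain. Each group had 3 libraries, described as biological replicates, and uninjured animals were not analysed here.

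Myelin is the lipid-rich sheath around axons, which oligodendrocytes make in the central nervous system and Schwann cells make in peripheral nerves. Mbp and Mobp encode proteins of compact myelin, Mog a protein of the outermost layer of the sheath, Mag an adhesion protein that faces the axon, and Cnp a cyclic nucleotide phosphodiesterase of the cytoplasm-filled parts of the sheath. Olig1, Olig2 and Sox10 encode transcription factors of the oligodendrocyte lineage. Mog, Mobp and the Olig genes are known mainly from the central nervous system, whereas Mbp, Mag, Cnp and Sox10 are also used by Schwann cells, and Sox10 by other cells of neural crest origin. The Mbp locus further encodes golli transcripts, which immune cells can express.

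The libraries held 14126082 to 18972654 counts, and the 8 genes together took 0.0104% to 0.292% of a library. By these totals, 3 counts stood for 0.158 to 0.212 CPM (counts scaled to a common library size). The levels below also use scaling factors between libraries (TMM), so this floor is approximate for them. The transcripts of both day 2 groups went against their tissue labels. The summed level of 12 neuron markers was 13367 to 13876 CPM in SB4 and 13008 to 13289 CPM in BS2, against 81.6 to 130 CPM in SB2 and 85.9 to 173 CPM in BS6. The summed level of 11 bone and fibrous matrix markers was 77622 to 89002 CPM in SB2 and 46185 to 173598 CPM in BS6, against 30.8 to 42.8 CPM in SB4 and 38.8 to 67.0 CPM in BS2. None of these markers was at 0 in a whole group. SB4 and BS2 are therefore described below as libraries with brain transcripts, and SB2 and BS6 as libraries with bone transcripts, and the members are also compared without the day 2 groups. BS6 replicate 2 also stood apart from its group, with a mean chi-square per gene of 244 and 262 against the other libraries of BS6, which gave 42.2 between them. In that library Col1a1, the main collagen of bone, was at 0.280 times and S100a9, a neutrophil gene, at 12.3 times the mean of the other libraries of its group.

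The promoter windows of members that moved together are shown first, since their letters differ widely although their levels fell and rose in the same libraries. They are RefSeq windows on build GRCm38.p6, from 250 bases before to 50 bases after an annotated start, and 5 of the 8 members had at least 1 window. Capitals mark matches to ACAAAG or ACAATG, written after the letters that Sox factors prefer, to CANNTG, the E-box of helix-loop-helix factors such as Olig1 and Olig2, to TATAAA and to GGGCGG, each searched on both strands. The windows of Mobp (chr9:120149492-120149791, plus strand), Cnp (chr11:100574689-100574988, plus strand), Olig2 (chr16:91225300-91225599, plus strand) and Mog (chr17:37023349-37023648, minus strand) were chosen because these genes kept very unequal shares of their level in the libraries with bone transcripts.
Mobp: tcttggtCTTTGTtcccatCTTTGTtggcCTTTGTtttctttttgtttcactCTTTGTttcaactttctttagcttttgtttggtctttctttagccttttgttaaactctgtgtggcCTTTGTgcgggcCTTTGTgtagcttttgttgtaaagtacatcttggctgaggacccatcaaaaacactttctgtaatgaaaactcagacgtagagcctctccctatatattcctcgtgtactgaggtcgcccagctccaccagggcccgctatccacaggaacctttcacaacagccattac
Cnp: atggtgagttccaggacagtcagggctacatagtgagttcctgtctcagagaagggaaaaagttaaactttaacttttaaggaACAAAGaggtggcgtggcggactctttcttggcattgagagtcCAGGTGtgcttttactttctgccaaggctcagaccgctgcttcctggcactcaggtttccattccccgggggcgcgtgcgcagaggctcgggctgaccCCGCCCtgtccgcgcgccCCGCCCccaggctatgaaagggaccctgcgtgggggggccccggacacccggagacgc
Olig2: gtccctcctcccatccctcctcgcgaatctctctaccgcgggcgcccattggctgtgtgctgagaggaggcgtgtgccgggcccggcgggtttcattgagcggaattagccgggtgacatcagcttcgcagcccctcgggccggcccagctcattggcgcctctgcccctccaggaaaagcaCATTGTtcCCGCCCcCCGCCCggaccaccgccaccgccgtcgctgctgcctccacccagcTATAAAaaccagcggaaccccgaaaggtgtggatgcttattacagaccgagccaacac
Mog: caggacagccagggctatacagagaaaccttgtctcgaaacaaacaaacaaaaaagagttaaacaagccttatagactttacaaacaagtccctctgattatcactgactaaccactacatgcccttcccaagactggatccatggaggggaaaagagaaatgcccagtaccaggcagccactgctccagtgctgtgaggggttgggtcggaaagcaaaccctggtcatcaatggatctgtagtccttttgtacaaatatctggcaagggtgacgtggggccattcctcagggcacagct
The Mobp window held 6 matches to ACAAAG, all as CTTTGT on the plus strand. As many were in 0.003044% of 32851 windows of the same length, a share made up by the Mobp window itself. At least 1 such match was in 18.71% of all windows, 1 of them that of Cnp. The Cnp and Olig2 windows held 17 and 25 CG dinucleotides, above the median of 7 over all windows, whereas the Mobp and Mog windows held 5 and 3. The Cnp window further held 1 match to CANNTG, found in 72.31% of all windows, and 2 to GGGCGG, where 35.66% of windows held at least 1 and 19.49% as many. The Olig2 window held 1 match to ACAATG, found in 12.57% of windows, 1 to TATAAA, found in 13.62%, and 2 to GGGCGG. The Mog window held none of these letters. These matches describe the letters only.

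The members lie on 7 chromosomes of build mm10 by the GENCODE M21 annotation. Mbp is on chromosome 18 (82475146 to 82585637), Mog on chromosome 17 (37010743 to 37023398), Mag on chromosome 7 (30899176 to 30914873), Cnp on chromosome 11 (100574904 to 100591729), Mobp on chromosome 9 (120149707 to 120181484) and Sox10 on chromosome 15 (79154908 to 79165240). Olig2 (91225457 to 91228677) and Olig1 (91269772 to 91271933) are neighbours on chromosome 16, 41094 bases apart with no other protein-coding gene between them. The 154 exonic bases that Cnp shares with Dnajc7 on the opposite strand make up 4.23% of its exons, so that some reads could belong to either gene if strand was not used in counting, which was not stated. Olig1 shares 157 exonic bases with a long noncoding RNA on the opposite strand that is not in the table.

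Mbp was at 1822, 1370 and 1364 CPM in the 3 libraries of SB4 and at 1350, 1264 and 1159 CPM in BS2. It was at 52.7, 113 and 51.7 CPM in SB2 and at 70.6, 191 and 55.4 CPM in BS6. Every library of SB4 and BS2 was thus above every library of SB2 and BS6, and in each of the latter groups replicate 2 was the highest.

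Mobp, the other protein of compact myelin, was at 685, 618 and 427 CPM in SB4 and at 479, 470 and 475 CPM in BS2. In SB2 it was at 9.66, 29.1 and 8.77 CPM, and in BS6 at 6.20, 28.4 and 3.81 CPM. Replicate 2 was again the highest library of SB2 and of BS6, at 3.15 and 5.67 times the mean of the other libraries of its group.

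Mog, an autoantigen of demyelinating disease, was at 37.0, 30.5 and 28.3 CPM in SB4 and at 30.0, 32.6 and 31.1 CPM in BS2. In SB2 and BS6 it rested on 1 to 6 counts per library, at 0.0568 to 0.363 CPM and 0.0647 to 0.375 CPM, near the level of 3 counts. Mag was at 100.5, 69.9 and 77.6 CPM in SB4 and at 78.3, 71.0 and 66.1 CPM in BS2, against 1.99, 2.1 and 1.81 CPM in SB2 and 2.00, 5.44 and 2.39 CPM in BS6. Neither gene overlapped between the libraries with brain and with bone transcripts.

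Cnp kept the largest share of its level among the 5 myelin genes. It was at 205, 199 and 166 CPM in SB4 and at 182, 173 and 166 CPM in BS2, and still at 31.2, 39.0 and 36.0 CPM in SB2 and 44.6, 53.8 and 49.1 CPM in BS6. Its levels were even within groups, and replicate 2 was only 1.16 and 1.15 times the mean of the other libraries in SB2 and BS6. In BS6 all 3 libraries were above all 3 libraries of SB2.

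Of the transcription factors, Olig1 was at 54.4, 48.0 and 52.2 CPM in SB4 and at 47.3, 48.7 and 40.4 CPM in BS2, against 0.852, 0.525 and 0.484 CPM in SB2 and 0.600, 1.69 and 0.129 CPM in BS6. Olig2, which directs cells into the oligodendrocyte lineage, was at 24.3, 22.7 and 17.4 CPM in SB4 and at 16.1, 17.3 and 15.8 CPM in BS2. It had 2, 0 and 2 counts in SB2 and 2, 8 and 0 counts in BS6, the lowest pooled count of all members in SB2, whereas in BS6 that of Mog was lower. Sox10 differed least. It was at 16.4, 13.2 and 14.8 CPM in SB4 and 14.5, 16.4 and 13.7 CPM in BS2, and at 1.70, 4.99 and 3.27 CPM in SB2 and 3.00, 5.50 and 5.24 CPM in BS6.

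**Figure D1:**
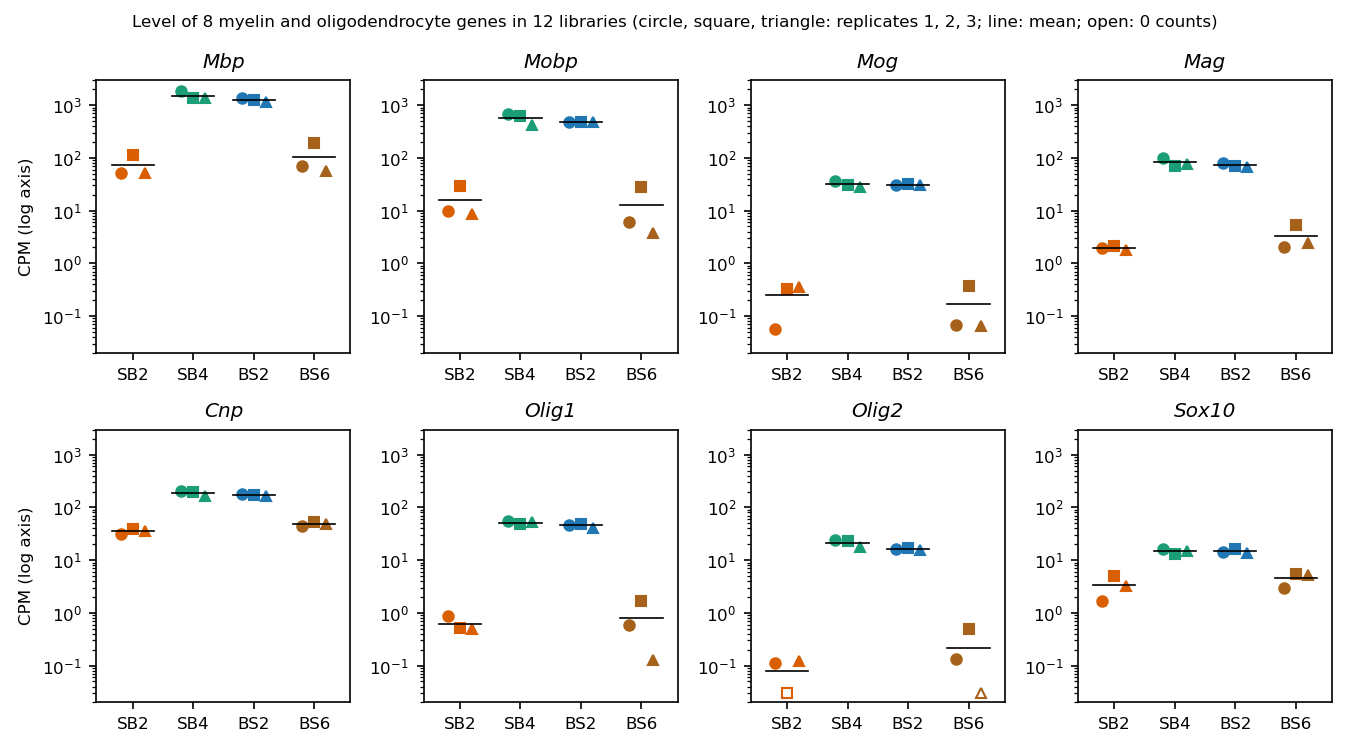
Level of each of the 8 genes in CPM (log axis) in the 3 libraries of each group, with the group mean as a line and libraries at 0 counts as open symbols at the lower edge. The SB4 and BS2 libraries lie above the SB2 and BS6 libraries for every gene, with the narrowest gap for Sox10 and Cnp.

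Compared per kilobase of exon, Mbp was the highest member in the libraries with brain transcripts, at 179 ± 31.1 CPM per kb in SB4 and 149 ± 11.3 CPM per kb in BS2 (SD, n = 3). Mobp followed at 84.2 ± 19.5 and 69.3 ± 0.723 CPM per kb and Cnp at 52.3 ± 5.79 and 47.7 ± 2.27 CPM per kb. Olig1, Mag and Mog came next in both groups, at 17.6 to 23.8 CPM per kb, with libraries that overlapped between neighbours, then Olig2 at 8.49 and 6.48 CPM per kb, and Sox10 was last at 4.85 and 4.88 CPM per kb. In the libraries with bone transcripts Cnp led with 9.73 ± 1.07 CPM per kb in SB2 and 13.5 ± 1.27 CPM per kb in BS6, overlapping with Mbp at 8.54 ± 4.12 and 12.5 ± 8.80 CPM per kb. Sox10 stood in the fourth place there, at 1.09 and 1.5 CPM per kb, and overlapped with Mobp. With the longest transcript as the length, Mbp came before Cnp in SB2 and BS6, and Mag before Olig1 in SB4 and BS2.

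The first comparison of the study's design asked how libraries labelled brain cortex differed between day 4 and day 2 after skull injury. All 8 members were called higher in SB4 than in SB2, that is, with an adjusted p under 0.05 and a change of over 1 on the log2 scale, where 27.8% of 17293 genes tested were called higher and 28.6% lower. The myelin genes rose by a log2 fold change of 4.40 for Mbp (SE 0.42, Benjamini-Hochberg adjusted p = 0.000302, edgeR quasi-likelihood test), 5.21 for Mobp (SE 0.62), 7.0 for Mog (SE 0.27), 5.40 for Mag (SE 0.17) and 2.44 for Cnp (SE 0.10). The transcription factors rose by 6.36 for Olig1 (SE 0.16), 7.94 for Olig2 (SE 0.34) and 2.18 for Sox10 (SE 0.31). The median of the 8 log2 fold changes was 5.30, and over all genes tested the median was -0.015 and the median size 1.25. The adjusted p of the same test lay between 1.69e-11 for Olig1 and 0.00112 for Mobp. Mog, Olig1 and Olig2 passed the filter on low counts only through the group where they were high, so a difference was bound to follow for them here and in the other comparisons between libraries with brain and with bone transcripts. The sum of the neuron markers differed between the same groups as given above, and the day and the tissue that the transcripts came from cannot be told apart in this comparison.

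The second comparison was between day 6 and day 2 after brain injury in libraries labelled interparietal bone. All 8 members fell from BS2 to BS6, where 26.5% of 17311 genes tested were called lower and 29.0% higher. The log2 fold change was -3.57 for Mbp (SE 0.51, Benjamini-Hochberg adjusted p = 0.000837, edgeR quasi-likelihood test), -5.21 for Mobp (SE 0.82), -7.44 for Mog (SE 0.43), -4.45 for Mag (SE 0.39) and -1.82 for Cnp (SE 0.11). It was -5.79 for Olig1 (SE 0.62), -6.20 for Olig2 (SE 0.63) and -1.70 for Sox10 (SE 0.25), and the median of the 8 was -4.83. Mog, Olig1 and Olig2 again passed the filter through BS2 alone. Without BS6 replicate 2 all 8 were still called, and the changes were larger, at -4.31 for Mbp, -6.56 for Mobp, -8.72 for Mog, -5.02 for Mag, -1.88 for Cnp, -6.94 for Olig1, -7.79 for Olig2 and -1.84 for Sox10. In this comparison too the day and the tissue of the transcripts cannot be told apart.

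Without the day 2 groups, the libraries of SB4 were set against those of BS6, whose transcripts went with their labels. All 8 members were higher in SB4, where 26.5% of 17298 genes were called higher, with log2 fold changes from 1.70 for Sox10 (SE 0.25) and 1.97 for Cnp (SE 0.13) to 6.61 for Olig2 (SE 0.63) and 7.49 for Mog (SE 0.45). The day 2 groups alone gave the opposite direction by label, with all 8 lower in SB2 than in BS2 and 27.6% of 17252 genes called lower, from -2.18 for Sox10 (SE 0.30) and -2.30 for Cnp (SE 0.09) to -6.96 for Mog (SE 0.25) and -7.53 for Olig2 (SE 0.32). The change from SB2 to SB4 minus that from BS2 to BS6, tested over all 12 libraries, was called higher than 0 for all 8 members, where 35.8% of 18068 genes were, and its values are given at the end. These comparisons share libraries with each other. In bulk tissue, fewer cells of a type and less RNA per cell cannot be told apart.

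**Figure D2:**
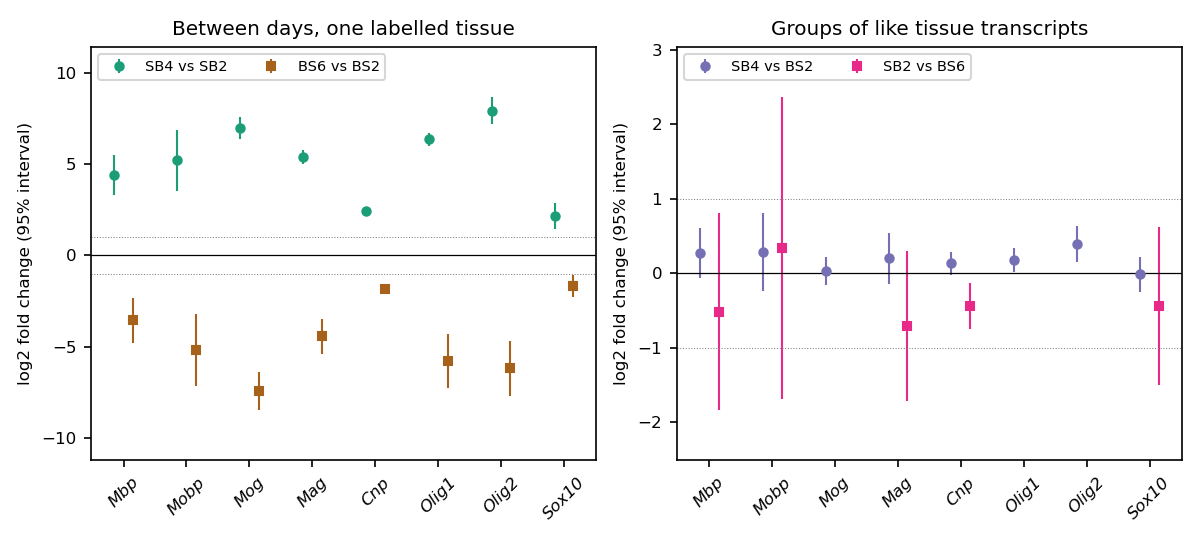
Log2 fold change of each gene (y axis) with its 95% interval. On the left are the changes between days, SB4 against SB2 and BS6 against BS2, all beyond 1 in size and opposite in sign, and on the right the differences between groups of like transcripts, all within 1 of 0 with wide intervals for SB2 against BS6 (3 genes did not pass the filter there).

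Between SB4 and BS2, which both held brain transcripts but differed by their labels in injury site, tissue and day, none of the 8 members was called by edgeR's quasi-likelihood test, where 0.147% of 16278 genes were called in either direction. At an unadjusted p under 0.05 there were 2, and DESeq2 called 0. The larger of these was Olig2, with a log2 fold change of 0.39 (95% interval 0.15 to 0.63, adjusted p = 0.139 by edgeR's test), and its levels in SB4 were all above those in BS2. The other was Olig1 at 0.18 (95% interval 0.018 to 0.34, adjusted p = 0.360 by edgeR's test). The difference was 0.27 for Mbp (95% interval -0.063 to 0.61), 0.28 for Mobp (-0.24 to 0.81), 0.20 for Mag (-0.14 to 0.54), 0.13 for Cnp (-0.020 to 0.29), 0.029 for Mog (-0.17 to 0.22) and -0.013 for Sox10 (-0.25 to 0.22). If the labels of the day 2 groups had been exchanged, these groups would differ in the day alone, as would SB2 and BS6, and this was not tested. These intervals leave room for a change of up to 1.75-fold for Mobp and 1.53-fold for Mbp upwards, and for Sox10 of up to 1.17-fold upwards and 1.19-fold downwards. In some alternative settings the adjusted p of edgeR's test was lower, down to 2.85e-05 for Mobp, 0.0114 for Olig2 and 0.0226 for Mbp. The largest log2 fold changes over the alternatives were 0.46, 0.52 and 0.35 for these genes, so none was called.

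Between SB2 and BS6, which both held bone transcripts, 5 members passed the filter and none was called by edgeR's quasi-likelihood test, where 1.86% of 16329 genes were called in either direction. At an unadjusted p under 0.05 there was 1, Cnp, lower in SB2 with a log2 fold change of -0.44 (95% interval -0.75 to -0.14, adjusted p = 0.0879 by edgeR's test). DESeq2 called 0, with 1 member at an adjusted p under 0.05 and a change of less than 1. The intervals of the others were wide, from -1.84 to 0.81 for Mbp, -1.71 to 0.30 for Mag, -1.5 to 0.63 for Sox10 and -1.69 to 2.37 for Mobp. The differences of Mbp and Mobp turned direction with replicate 2. Mbp was at -0.52 with all libraries and 0.23 without BS6 replicate 2, and Mobp was at 0.34 with all libraries, -0.44 without SB2 replicate 2 and 1.69 without BS6 replicate 2. Without replicate 2 of both groups, chosen after seeing the data, Mbp was at -0.24 and Mobp at 0.91. Without a filter, Mog was at 0.56, Olig1 at -0.32 and Olig2 at -1.28, and none of them was called.

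Relative to the libraries with brain transcripts, the members kept very different shares of their level. From pooled counts scaled to library size, with exact 95% intervals that cover counting error only, SB2 held 22.1% (18.6 to 26.3) of the Sox10 level of SB4 and 18.6% (17.7 to 19.6) of that of Cnp. It held 4.75% (4.59 to 4.91) for Mbp, 2.70% (2.51 to 2.90) for Mobp and 2.43% (1.96 to 2.97) for Mag. For Olig1 the share was 1.22% (0.830 to 1.74), for Mog 0.771% (0.398 to 1.35) and for Olig2 0.381% (0.104 to 0.978). BS6 held 30.9% (26.4 to 36.0) of the Sox10 level of BS2, 28.3% (27.0 to 29.6) for Cnp and 8.47% (8.23 to 8.72) for Mbp, against 4.59% for Mag, 2.75% for Mobp, 1.79% for Olig1, 1.31% for Olig2 and 0.552% for Mog. Of 12 neuron markers, the median share was 0.404% in SB2 relative to SB4 (range 0.162% to 3.54%) and 0.859% in BS6 relative to BS2 (range 0.416% to 2.92%). Without replicate 2 of SB2 the first median was 0.529% (range 0.0786% to 3.82%), and without replicate 2 of BS6 the second was 0.427% (range 0% to 2.55%). Sox10 and Cnp were above the highest neuron marker in both pairs of groups, with and without replicate 2 of SB2 and BS6. Mbp was above it too with all libraries, but without SB2 replicate 2 it was at 3.44% and the highest neuron marker, which was Tubb3 and is named for that rank after its values were seen, at 3.82%. Mag was above it only in BS6, relative to BS2 and also relative to SB4 (3.97% against 2.88%, by group means). The other members were within the range of the neuron markers. With all libraries, markers of astrocytes, the other macroglia of the brain, kept more than neuron markers did. Their median was 8.59% in SB2 relative to SB4 (range 0.521% to 468%) and 8.49% in BS6 relative to BS2 (range 0.847% to 238%). Of these 8 markers, 2 were above both Sox10 and Cnp in each pair of groups, Gja1 and Sox9, of which Sox9, also a factor of cartilage, is named after its values were seen. With all libraries, Mbp was below 6 of them in SB2 relative to SB4 and below 4 in BS6 relative to BS2. In these pairs the 5 other members were each below 7 or 8 of them. With the other reference group, Mbp was below 7 in BS6 relative to SB4, and Mobp was below 6 in SB2 relative to BS2. For these markers BS6 replicate 2 ranged from 0.322 times the mean of the other libraries of BS6 for Gja1 to 11.7 times for Aldoc. The astrocyte medians and ranks are given with all libraries only, and this library can move them. Without SB2 replicate 2 the share of Mobp was 1.60% and that of Sox10 16.8%. Without BS6 replicate 2 the share was 5.01% for Mbp, 3.06% for Mag, 1.06% for Mobp, 0.802% for Olig1, 0.407% for Olig2 and 0.210% for Mog, but still 27.7% for Sox10 and 27.0% for Cnp, so that the counting intervals do not cover the spread between libraries.

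**Figure D3:**
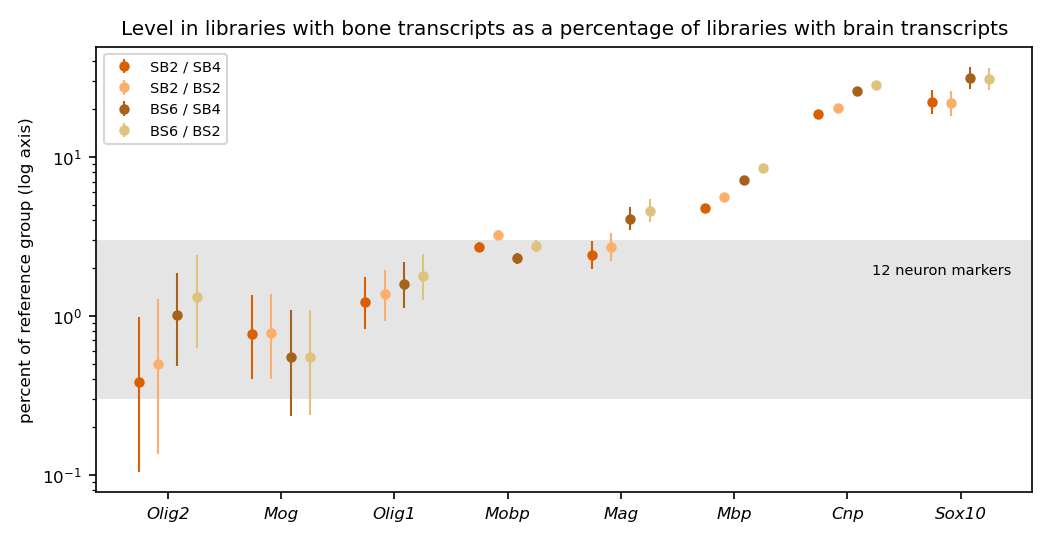
Level of each gene in a group with bone transcripts as a percentage of a group with brain transcripts (log axis), for 4 pairs of groups, with exact 95% counting intervals. The grey band spans 12 neuron markers, each averaged over the 4 pairs, and Sox10, Cnp and Mbp lie above it in all 4 pairs.

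The same contrast can be written as shares within libraries, where library size and scaling play no part. These shares restate the unequal levels above and are no further evidence. Cnp made up 7.70% of the counts of the 8 genes in SB4 (6.97% to 8.40%) and 8.33% in BS2 (8.28% to 8.42%), but 29.2% in SB2 (20.7% to 35.1%) and 32.0% in BS6 (18.7% to 42.3%). Sox10 went from 0.600% in SB4 to 2.52% in SB2 and from 0.714% in BS2 to 2.93% in BS6. The share of Mobp was 23.1% in SB4 against 11.3% in SB2, and 22.8% in BS2 against 6.02% in BS6, and the shares of Mog, Mag, Olig1 and Olig2 were lower in the libraries with bone transcripts as well. For each of these 7 genes the libraries did not overlap in either comparison, although Mog, Olig1 and Olig2 rested on few counts in SB2 and BS6. A two-sided exact permutation test of 3 libraries against 3 gave p = 0.1 for each. This is the smallest p it can give, so the test decides nothing here. The share of Mbp, the largest part of the sum, was 61.0% in SB4 and 54.6% in SB2, where 53.6% and 50.4% in replicates 1 and 3 were below all libraries of SB4. It was 60.3% in BS2 and 56.6% in BS6, and the exact permutation test gave p = 0.2 and p = 0.7, which does not show that the shares were alike. BS6 replicate 2 had the lowest Cnp share of its group and the highest Mbp and Mobp shares, at 18.7%, 66.7% and 9.89%.

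**Figure D4:**
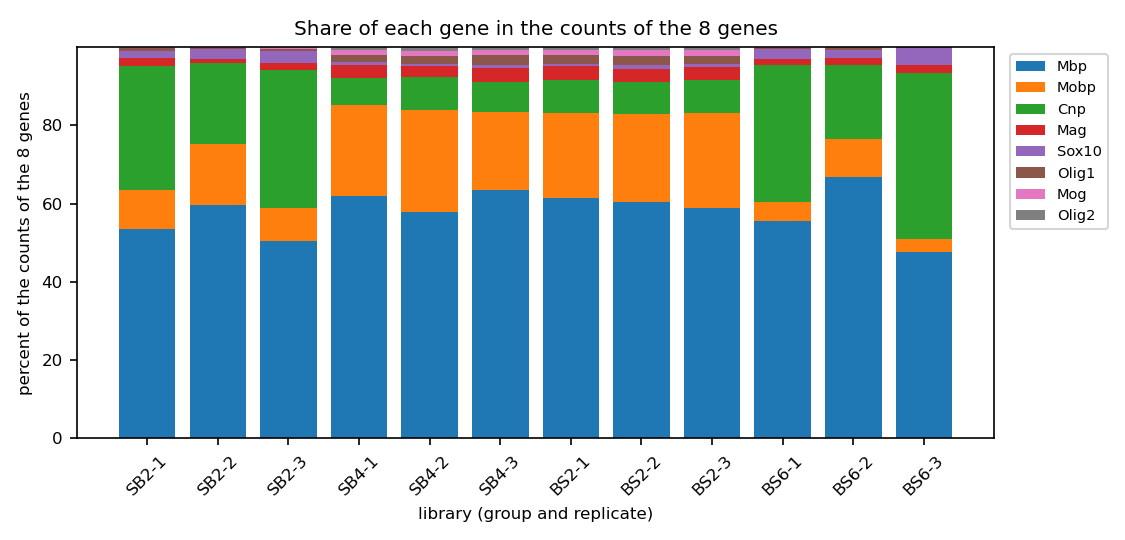
Share of each gene in the summed counts of the 8 genes (y axis, percent) in each of the 12 libraries. Cnp and Sox10 widen and Mobp narrows in the SB2 and BS6 libraries, where Cnp averages 29.2% and 32.0%, while Mbp is at 57.8% to 63.5% in SB4 and BS2 and at 47.7% to 66.7% in the others.

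BS6 replicate 2 held more of most members than the rest of its group. It was at 7.5 times the mean of the other libraries for Olig2, 5.71 times for Mog, 5.67 times for Mobp, 4.63 times for Olig1, 3.04 times for Mbp and 2.48 times for Mag, but at 1.34 times for Sox10 and 1.15 times for Cnp. Of the 12 neuron markers, 10 were above the mean of the other libraries there and 1 below, from 0.639 times for Camk2a to 46.7 times for Gad1, and for 1 the other libraries were at 0 counts. Gad1, an enzyme of inhibitory neurons, is named as the upper end of this range after its values were seen. The ratios of Olig2 and Mog rest on at most 8 counts per library. SB2 replicate 2 was high for Mobp, Mbp and Sox10, at 3.15, 2.16 and 2.01 times, and not for Mag (1.10 times), Olig1 (0.786 times) or Olig2, at 0 counts. Of the neuron markers 6 were above and 6 below the mean of the other libraries there, with a median of 0.946 times. The part of these libraries' other transcripts in the members' levels was not tested.

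Other genes of myelin were taken from lists of known function, whose counts include genes that passed the filter on low counts only through the libraries where they were high, so that a difference was bound to follow for them as well. The counts are to be read against all genes tested, of which 27.8% were called higher and 28.6% lower in SB4 than in SB2, and 29.0% higher and 26.5% lower in BS6 than in BS2. Of 20 further proteins of central myelin and its sheath, 16 were called higher and 1 lower in SB4 than in SB2, with a median log2 fold change of 4.63, and 15 fell from BS2 to BS6, with a median of -3.67 and none called higher. Of these, 6 of the 16 and 8 of the 15 passed the filter through SB4 or BS2 alone. Nfasc, an adhesion protein of the nodal region, was at 385 CPM in SB4 and 333 CPM in BS2, against 16.8 CPM in SB2 and 15.9 CPM in BS6. Plekhb1 changed less, from 161 to 23.5 CPM and from 138 to 47.7 CPM. Sept4, a septin filament protein, went from 157 to 59.4 CPM between SB4 and SB2, but at 139 CPM in BS2 and 125 CPM in BS6 it was not called between the latter. Anln, an actin-binding protein of myelin septin filaments and of dividing cells, went the other way in SB2 (57.1 CPM) relative to SB4 (25.7 CPM), with a log2 fold change of -1.14 for SB4 against SB2 (SE 0.13, adjusted p = 1.13e-05 by edgeR's test). Opalin, named here after its values were seen as the lowest share on the list, was at 13.3 CPM in SB4 and 11.2 CPM in BS2 and rested on 1 count in all of SB2, as did its level in BS6.

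Of 11 enzymes of myelin lipids, 7 were called higher and 2 lower in SB4 than in SB2 (median 1.79), and 5 fell and 2 rose from BS2 to BS6 (median -1.67). Of these, 2 of the 7 and 1 of the 5 passed the filter through SB4 or BS2 alone, and the 2 against the majority are no more than the share over all genes gives. Ugt8a, which makes the galactolipids of myelin, was at 42.8 ± 10.4 CPM in SB4 against 2.17 ± 0.513 CPM in SB2. In BS2 it was at 45.1 ± 6.02 CPM and in BS6 at 1.93, 25.6 and 6.53 CPM, where replicate 2 was at 6.04 times the mean of the other libraries. The 2 exceptions in both comparisons were Cers2 and Elovl1, enzymes of very long chain lipids that many tissues use, at 39.5 and 11.0 CPM in SB4 against 160 and 98.6 CPM in SB2.

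Of 8 further transcription factors of the lineage, 7 were called higher in SB4 than in SB2 and 6 fell from BS2 to BS6. Of these, 4 of the 7 and 3 of the 6 passed the filter through SB4 or BS2 alone, Myrf among them in both comparisons. Id4, an inhibitor of helix-loop-helix factors and the factor with the highest mean level on the list, kept more of its level, at 39.8 ± 3.39 CPM in SB4 and 40.0 ± 1.90 CPM in BS2 against 8.37 ± 2.00 CPM in SB2 and 15.6 ± 2.34 CPM in BS6. Myrf, a regulator of myelin genes, was at 30.8 and 25.3 CPM in SB4 and BS2 against 0.667 and 0.831 CPM in SB2 and BS6, and Sox8, a relative of Sox10, at 37.7 and 31.5 CPM against 1.63 and 2.93 CPM. Tcf7l2, a Wnt pathway factor of many cell types, went the other way, at 3.67 and 4.11 CPM against 24.4 and 24.7 CPM. Of 12 genes of oligodendrocyte precursors, 7 were called higher and 4 lower in SB4 than in SB2, and 7 fell and 4 rose from BS2 to BS6. The 4 in the other direction are near the share over all genes in both comparisons. In each comparison 4 of the 7 passed the filter through SB4 or BS2 alone. Ptprz1, a receptor phosphatase of precursors and astrocytes, was among the 7 in both, at 243 ± 26.2 CPM in SB4 and 247 ± 25.9 CPM in BS2 against 25.1 ± 1.68 CPM in SB2 and 48.7 ± 7.09 CPM in BS6. The 4 that went the other way in both comparisons were Pdgfra, Cspg4, Vcan and Enpp6, of which Pdgfra and Cspg4 also mark fibroblasts and pericytes. Pdgfra was at 44.6 ± 0.374 CPM in SB4 and 46.5 ± 3.37 CPM in BS2 against 231 ± 11.8 CPM in SB2 and 289 ± 75.9 CPM in BS6.

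The genes of Schwann cells and peripheral myelin did not follow the 8 members as a group. Of 17 found in the table, 16 were tested, with 6 called higher and 9 lower in SB4 than in SB2 (median -1.54), and 9 called higher and 3 lower in BS6 than in BS2 (median 1.68). The 3 called lower are below the share over all genes, 26.5%, and the 6 called higher in SB4 above theirs, 27.8%. Pmp22, a peripheral myelin protein that other tissues use too, was at 153 ± 15.3 CPM in SB2 and 138 ± 1.71 CPM in BS6 against 17 ± 3.05 CPM in SB4 and 18.2 ± 2.81 CPM in BS2. Sox2, Pou3f1 and Drp2 went the other way in both comparisons, and of these Sox2 is also a factor of neural stem cells and astrocytes and was at 37.7 CPM in SB4 against 0.686 CPM in SB2. Whether peripheral nerve gave the Sox10, Cnp and Mbp counts of these libraries was not tested.

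Among markers of other cells, all 12 of neurons were called higher in SB4 than in SB2 and lower in BS6 than in BS2, with medians of 7.96 and -6.86, although 3 and 5 of them passed the filter through SB4 or BS2 alone. Of 8 astrocyte markers, 7 were called in the same directions as the members in both comparisons, with medians of 3.55 and -3.56, and Gja1 in the opposite one. All 11 bone and fibrous matrix genes went against the members in both comparisons, as did 11 of 12 marrow cell genes in SB4 against SB2 and all 12 in BS6 against BS2. Of 8 microglia and macrophage genes, 4 were called lower and 1 higher in SB4 than in SB2, and 4 higher and 2 lower in BS6 than in BS2, against 28.6%, 27.8%, 29.0% and 26.5% over all genes. Between SB4 and BS2 none of 63 genes tested was called in the 5 lists of myelin, oligodendrocyte and Schwann cell genes beside the members. Over all genes 0.147% were called there, so a count of 0 says nothing particular about the lists. Between SB2 and BS6 those lists held 2 called genes of 55 tested, where 1.86% of all genes were called, so this count is no result about the lists. They were Anln with a log2 fold change of 1.24 (SE 0.18, adjusted p = 0.0311 by edgeR's test) and Sept4 with -1.03 (SE 0.20, adjusted p = 0.0432 by edgeR's test). Both calls were lost with the replicate block (adjusted p = 0.10 and 0.0995), and that of Sept4 with total counts (-0.97, adjusted p = 0.0507). When libraries were left out in turn, Anln was called only without BS6 replicate 2 and Sept4 was not called, with log2 fold changes of 1.09 to 1.43 and of -0.92 to -1.20. Without replicate 2 of both groups, chosen after seeing the data, both were called, at 1.49 and -1.10 (adjusted p = 0.00462 and 0.0154 by edgeR's test). Over all genes, 0 were called with the replicate block and 0 without SB2 replicate 1, 2 or 3. Without BS6 replicate 1 and 3 there were 34 and 32. Both calls thus depend on the libraries used, as did the calls over all genes.

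**Figure D5:**
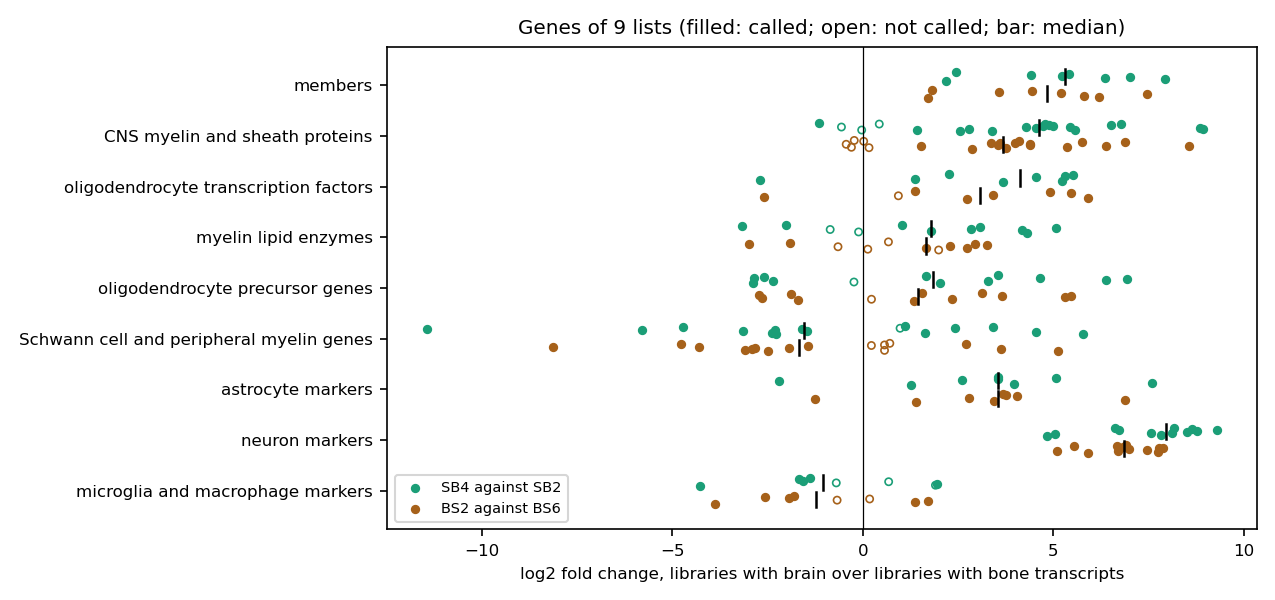
Log2 fold change of each gene of 9 lists (x axis), as libraries with brain over libraries with bone transcripts, for SB4 against SB2 and BS2 against BS6, with called genes filled and the median as a bar. The 8 members and the neuron markers lie to the right of 0, whereas the lists of precursor and Schwann cell genes lie on both sides.

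Across the 12 libraries the members followed each other closely, with Pearson's r of log2(CPM + 1) between 0.93 and 1.00 over their pairs, but the 12 points form separate clusters by tissue content, and these values describe that gap. The genes most like them over the 12 libraries included Grm7, a glutamate receptor gene of neurons, for Mog (r = 0.999), Gpr37l1 for Mbp (r = 0.996) and Gjc3, a connexin of myelinating glia, for Cnp (r = 0.997). Sox10 had the lowest best match, Shd at r = 0.983. Within the 6 libraries of SB4 and BS2 alone, the pairs ranged from 0.067 for Mobp with Sox10 to 0.95 for Mbp with Mag. There, Plekhb1 was second among the genes most like Mbp (r = 0.987), and Ifi27, which interferon induces, was the gene most like Olig2 (r = 0.998). Within the 6 libraries of SB2 and BS6, the pairs ranged from -0.034 for Olig1 with Sox10 to 0.90 for Olig1 with Olig2, the latter at counts of 0 to 27 per library. These correlations come from 6 or 12 libraries searched over at least 15170 genes.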

How the data were processed

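RNA was sequenced from 12 libraries of 4 groups. Per the study's methods and the submitters' processing notes, the authors trimmed paired reads of 150 bases with fastp, mapped them to mm10 with HISAT2 2.1.0 and deposited raw counts per gene symbol. The counting program, its annotation and its use of strand, and whether a batch correction preceded the deposited counts, are not given in the sources used here. All columns of the table belonged to these samples.

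The 8 members and the gene lists were chosen with earlier results of these data known, so no list count is independent evidence. Levels are CPM, counts scaled to library size with TMM factors over all libraries, and lengths are the exon union of GENCODE M21, which held 22022 of the 22317 symbols. Differences were tested on the counts with the quasi-likelihood test of edgeR 4.0.16 (R 4.3.3), robust fits, TMM factors and filterByExpr at a minimum count of 10, in the 6 libraries of each comparison and in all 12 for the difference of the day changes. P-values were adjusted by Benjamini-Hochberg over all genes tested, and the term called stands for adjusted p-values below 0.05 together with a change of more than 1 in size on the log2 scale. The script was tested on simulated data. Alternatives were RLE factors, total counts, DESeq2 1.42.0, no filter, 10 counts in every library, a replicate block, one fit of all libraries and leaving out each library, and the joint removal of replicate 2 of SB2 and BS6 was chosen after seeing the data. The study described the replicates as biological, and p-values measure the spread between these libraries. Named from each list were its 4 genes with the highest mean CPM and up to 4 called genes per comparison that went against the majority of the list, and as genes most like a member the 3 with the highest Pearson correlation. Genes outside this rule are marked where they appear. Some genes that this rule names are not reported here.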

Additional observations from a re-analysis of the deposited data

Results flagged for a closer look

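The change between days differed between the libraries labelled brain cortex and those labelled interparietal bone for all 8 members, by a test of the difference itself over all 12 libraries, where 35.8% of 18068 genes were called in the same direction. The log2 change from SB2 to SB4 exceeded that from BS2 to BS6 by 14.43 for Mog, 14.13 for Olig2, 12.14 for Olig1, 10.40 for Mobp, 9.83 for Mag, 7.96 for Mbp, 4.25 for Cnp and 3.86 for Sox10. Without replicate 2 of both SB2 and BS6, chosen after seeing the data, it was larger for each, at 15.95 for Mog, 15.22 for Olig2, 13.18 for Olig1, 12.52 for Mobp, 10.45 for Mag, 9.17 for Mbp, 4.38 for Cnp and 4.41 for Sox10, and all 8 were still called. Mog, Olig2 and Olig1 had 0 to 27 counts per library in SB2 and BS6 and passed the filter only through SB4 and BS2, so a difference was bound to follow for them. The adjusted p of edgeR's quasi-likelihood test lay between 4.01e-10 for Cnp and 7.93e-06 for Sox10. Between the same groups the neuron markers moved with the members and the bone and fibrous matrix markers against them. The labelled tissue, the injury, the day and the tissue that the transcripts came from cannot be told apart in this difference.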

How the results depend on the processing

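The number of members called was 8 in SB4 against SB2, BS6 against BS2, SB4 against BS6, SB2 against BS2 and the difference of the day changes. In the other comparisons it was 0. The same numbers held under RLE factors, total counts, DESeq2 and no filter. They also held with the adjusted p alone in the main fit, one fit of all libraries and every library left out. With at least 10 counts in every library the number was 5 in each comparison with 8, since only 5 members were then tested. The numbers of the replicates did not pair the libraries, whose deviations correlated at -0.0909 to 0.0626, and with the replicate block the members called were again 8 or 0. Over all genes, the calls with the block went from 24 to 61 in SB4 against BS2 and from 303 to 0 in SB2 against BS6. In SB2 against BS6 they also went to 0 without SB2 replicate 1, 2 or 3, and to 34 and 32 without BS6 replicate 1 and 3. Few or no calls were possible in these fits, so a count of 0 members there says nothing about the members.

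Directions that turned belonged to differences that were not called. When libraries were left out in turn, SB4 against BS2 ranged from -0.082 to 0.11 for Mog and from -0.086 to 0.062 for Sox10, and SB2 against BS6 from -0.99 to 0.23 for Mbp and from -0.44 to 1.69 for Mobp. Without replicate 2 of both SB2 and BS6, Mobp was at 0.91 and Cnp at -0.45, with adjusted p = 0.0691 and 0.0501 by edgeR's quasi-likelihood test. Total counts moved the median of all genes in SB4 against SB2 from -0.015 to -0.11. Depth limits Mog, Olig1 and Olig2 in SB2 and BS6, where they had 0 to 27 counts per library. The cause of these changes was not tested.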
